A study of Homo sapiens with 6 samples.

Results

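The genes described here encode the nuclear subunits of oxidative phosphorylation, the 5 protein complexes of the inner mitochondrial membrane that pass electrons to oxygen and make ATP. They were chosen by gene symbol alone. No measured value entered the rule, but it was set with earlier results of these data known. The rule took symbols of the NDUFA, NDUFB, NDUFC, NDUFS and NDUFV families, SDHA to SDHD, symbols starting with UQCR, COX4 to COX8 or ATP5, and CYC1. Of 89 matching symbols in a table of 26364 genes, 2 were dropped for a pseudogene suffix and 87 remained, with 36 in complex I, 4 in complex II, 10 in complex III, 18 in complex IV and 19 in complex V. NDUFA4 was counted with complex IV, where its protein sits, although its name is that of complex I. Of the 87 symbols, 81 encode subunits. The other 6 are COX7A2L, a factor for supercomplexes of complexes III and IV; UQCRHL, a retrocopy of UQCRH; ATP5L2, a copy of ATP5L; the readthrough gene ATP5J2-PTCD1; and ATP5S and ATP5SL, which kept an ATP synthase name. Symbols are those of the table, and 20 of them have since changed (ATP5A1 is now ATP5F1A, ATP5D is ATP5F1D, NDUFA4 is COXFA4).

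RNA-seq of total RNA was made from T47D cells, an established line of human luminal A breast cancer, 48 h after transfection with a control siRNA (siNC) or with an siRNA against ELF5 (siELF5). ELF5 is a transcription factor of the ETS family that acts in luminal and alveolar cells of the mammary gland. Each group held 3 libraries and received 1 siRNA, so an effect of the target and an effect of that siRNA sequence cannot be told apart. The 2 siRNAs were separate catalogue products, and their chemistry is not stated. Both groups were transfected, and no untransfected cells were analysed here. The labels do not tell whether replicates came from separate cultures, and p-values then reflect only variation among these 6 libraries, possibly of technical origin.

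In respiration, complex I (NADH dehydrogenase) and complex II (succinate dehydrogenase) hand electrons to ubiquinone, complex III passes them to cytochrome c, and complex IV passes them to oxygen. Complexes I, III and IV pump protons as they do so, and complex V (ATP synthase) uses the returning protons to make ATP. Apart from complex II, each complex joins nuclear-encoded subunits to a few encoded by mitochondrial DNA, which were not analysed here. The nuclear genes lie scattered over the genome, and the transcription factors NRF1, GABPA (an ETS factor, also called NRF-2) and YY1 are known to act on many of their promoters.

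The 6 libraries held 66.8 M to 83.7 M reads, and 18767 to 19194 genes had a read. Values are normalised read counts, that is, gene counts divided by 1 size factor per library. They are not divided by gene length, so levels are compared between libraries and not between genes. ELF5 itself stood at 13225, 13148 and 12910.2 in the siNC libraries and at 3678, 3725 and 3638 in the siELF5 libraries, a fall to 28.1% of the siNC mean (log2 fold change -1.83, SE 0.033, adjusted p = 3.26e-12). The 9 luminal markers were abundant, with 4 higher (ESR1, PGR, GATA3 and FOXA1, log2 fold changes 0.45, 0.22, 0.15 and 0.31) and 2 lower (KRT8 and KRT18, -0.41 and -0.45). Over all 16 markers of stromal, immune, endothelial and myoepithelial cells, of which none was at 0 in every library, the summed level was 4629 to 5845 in siNC and 3824 to 4377 in siELF5. Of these, 6 were high enough to test, 1 higher (TP63) and 3 lower (COL1A1, LUM and VWF). Most of the sum was COL1A1 (4029, 4734 and 5184 in the siNC libraries and 3220.4, 3434 and 3765 in the siELF5 libraries). COL1A2, COL3A1 and DCN of the same list were low, at no more than 13.7, 9.81 and 14.8 in any library. PTPRC, CD3E, LYZ, PECAM1 and CDH5 had at most 8.22, while the vessel marker VWF read 26.4, 34.1 and 28.3 in the siNC libraries and 14.5, 11.8 and 12.3 in the siELF5 libraries and the macrophage marker CD68 129.9, 125 and 143 in the siNC libraries and 160.3, 163 and 178 in the siELF5 libraries. The part of these markers in the results below was not tested. In bulk RNA, fewer cells of a type and less RNA per cell cannot be told apart.

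The groups also differed in base composition. A library GC score, the median log2 deviation of the 1544 genes in the highest of 10 GC classes minus that of a middle class, was -0.42, -0.22 and -0.08 in siNC and 0.23, 0.28 and 0.22 in siELF5. The score separated the groups and also spread the siNC libraries. Each result below on a tested member with a transcript GC content of 60% or more is therefore given with that content. Its value after a per-library correction on GC content is given too. The model was also fitted with the score as a covariate.

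Of the 87 genes, 80 reached the mean of 10 needed for the test. At an adjusted p of 0.05, 37 of the 80 (46.2%) passed, 23 higher and 14 lower in siELF5, while 47.1% of all 16032 genes tested passed, 23.8% higher and 23.3% lower. The share of members that passed was thus near that of all genes and is no result about the members as a group. Their median log2 fold change was 0.000162, against 0.00155 over all genes tested. Groups did not overlap in 43 members, 25 higher and 18 lower, against 55.9% of all genes, 27.9% higher and 28.0% lower. Members ranged from NDUFS7, the core complex I subunit that carries the last iron-sulfur cluster before ubiquinone, at a log2 fold change of 1.47, to COX7A2L at -0.31. Only 4 members were both past the threshold and at least 1.5-fold changed, NDUFS7, ATP5D, NDUFB7 and NDUFS8, all higher and all with a transcript GC content over 60%; 10.5% of all genes tested met both conditions. On the whole reads recovered from the values, edgeR called 39 members, 24 higher and 15 lower, against 47.3% of all genes, and DESeq2 39, 23 higher and 16 lower, against 45.5%. In the authors' deposited table, 39 members passed, 23 higher and 16 lower. The share of all genes that passed there was not counted, so that count is no result about the members.

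**Figure D1:**
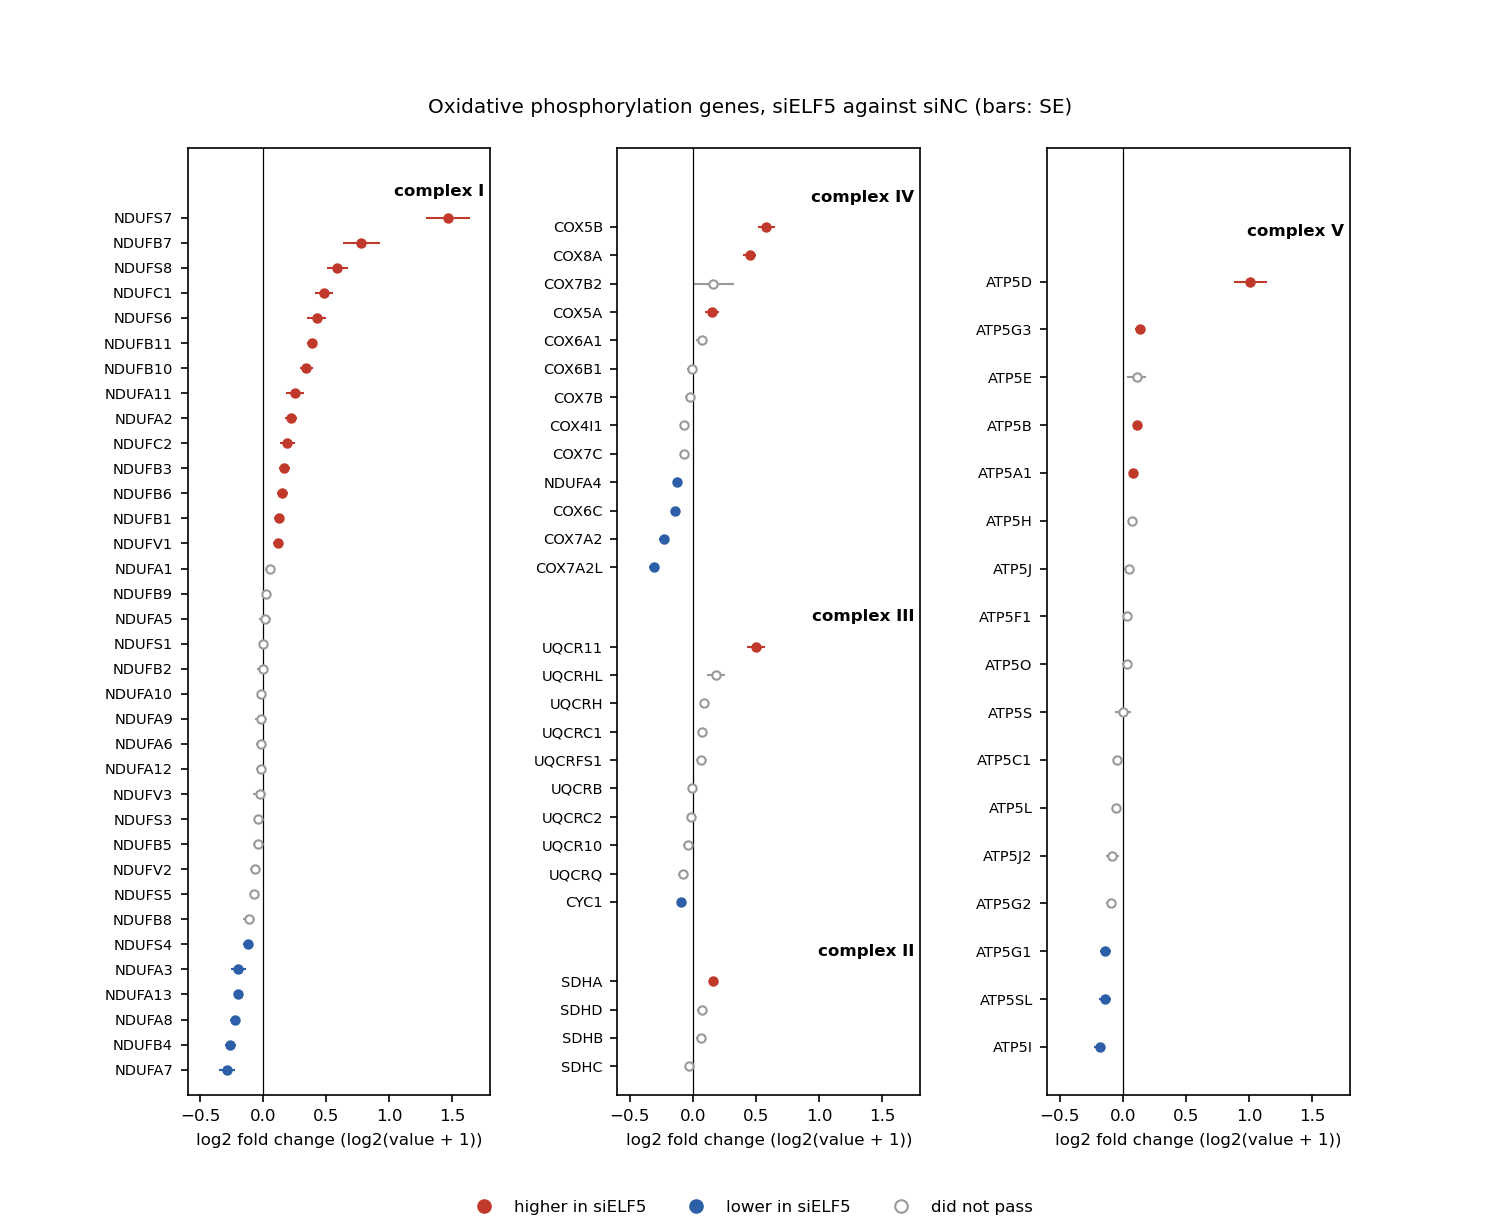
Log2 fold change of tested genes (x axis, log2(value + 1) scale, siELF5 over siNC), 1 row per gene, by complex, with SE as bars from 3 libraries per group; filled points passed an adjusted p of 0.05 and open points did not. Most genes lie close to 0, with 23 higher and 14 lower, and NDUFS7 (1.47), ATP5D (1.01), NDUFB7 (0.78), NDUFS8 (0.59) and COX5B (0.58) lie farthest to the right.

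Promoter sequences are given for 4 genes that rose and 2 that fell, to show what stretch of DNA lies at the start of members that moved in opposite directions. The genes were not picked by a rule, so they do not stand for all members that rose or fell. They run from 250 bases before to 50 bases after the annotated start, 5′ to 3′ on the gene's strand, from RefSeq on GRCh38.p14 (the counts were made on hg19, so these coordinates belong to RefSeq only). Capitals mark 3 motifs searched on both strands: CCGGAAG, the core bound by ETS factors; GCATGCGC, the core bound by NRF1; and AAGATGGC, the motif bound by YY1. A reverse-strand match appears as its reverse complement. NDUFS7 is at chr19:1383657-1383956 (plus strand), COX5B at chr2:97645812-97646111 (plus), COX8A at chr11:63974370-63974669 (plus), NDUFB11 at chrX:47144653-47144952 (minus), NDUFA8 at chr9:122159730-122160029 (minus) and NDUFB4 at chr3:120596086-120596385 (plus).
NDUFS7: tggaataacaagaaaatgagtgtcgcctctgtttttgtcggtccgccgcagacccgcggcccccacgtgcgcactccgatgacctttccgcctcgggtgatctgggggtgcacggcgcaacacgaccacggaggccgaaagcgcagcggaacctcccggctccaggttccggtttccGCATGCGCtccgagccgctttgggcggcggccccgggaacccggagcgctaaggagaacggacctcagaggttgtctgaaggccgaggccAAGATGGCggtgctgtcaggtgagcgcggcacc
COX5B: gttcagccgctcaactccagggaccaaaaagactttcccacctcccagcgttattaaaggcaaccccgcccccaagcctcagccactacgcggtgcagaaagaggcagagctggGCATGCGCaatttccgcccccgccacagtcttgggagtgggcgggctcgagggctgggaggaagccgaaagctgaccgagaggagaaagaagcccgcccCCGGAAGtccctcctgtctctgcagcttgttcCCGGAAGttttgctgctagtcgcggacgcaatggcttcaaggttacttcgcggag
COX8A: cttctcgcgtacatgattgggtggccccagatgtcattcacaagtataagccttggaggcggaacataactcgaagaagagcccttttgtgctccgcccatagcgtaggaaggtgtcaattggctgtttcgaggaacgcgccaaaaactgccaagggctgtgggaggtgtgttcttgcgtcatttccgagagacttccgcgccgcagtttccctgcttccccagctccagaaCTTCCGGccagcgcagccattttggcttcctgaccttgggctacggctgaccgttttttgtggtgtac
NDUFB11: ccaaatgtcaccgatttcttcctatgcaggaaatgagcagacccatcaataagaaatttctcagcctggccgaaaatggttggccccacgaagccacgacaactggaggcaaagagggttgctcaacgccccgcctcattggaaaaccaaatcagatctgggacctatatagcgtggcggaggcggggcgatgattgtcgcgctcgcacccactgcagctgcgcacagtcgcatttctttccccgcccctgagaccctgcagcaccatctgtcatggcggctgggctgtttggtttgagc
NDUFA8: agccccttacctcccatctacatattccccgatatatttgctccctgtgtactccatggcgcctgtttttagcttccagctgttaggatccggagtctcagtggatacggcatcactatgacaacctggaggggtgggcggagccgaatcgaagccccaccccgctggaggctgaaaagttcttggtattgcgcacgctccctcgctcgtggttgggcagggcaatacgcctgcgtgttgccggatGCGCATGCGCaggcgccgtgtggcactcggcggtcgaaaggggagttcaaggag
NDUFB4: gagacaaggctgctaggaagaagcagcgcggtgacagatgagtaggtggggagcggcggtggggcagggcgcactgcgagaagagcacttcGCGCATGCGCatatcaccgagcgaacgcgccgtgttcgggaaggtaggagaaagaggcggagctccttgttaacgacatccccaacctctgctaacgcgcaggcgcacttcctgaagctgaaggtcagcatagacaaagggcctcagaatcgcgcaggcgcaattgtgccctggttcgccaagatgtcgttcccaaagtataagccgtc
NDUFS7 held an NRF1 core 73 bases before the start and a YY1 motif 17 bases after it. COX5B held an NRF1 core 136 bases before the start and ETS cores 37 and 5 bases before it, and COX8A held 1 ETS core on the reverse strand, 18 bases before the start. In NDUFA8 and NDUFB4, both lower in siELF5, the NRF1 core occurred on both strands in a palindrome. Its reverse and forward matches began 4 and 2 bases before the start in NDUFA8 and 159 and 157 bases before it in NDUFB4. That palindrome was in 2 of 12 members that fell, 0 of 19 that rose and 2 of 34 that did not pass. COX7A2L and NDUFA7 fell further than NDUFA8 and NDUFB4. The COX7A2L window held none of the motifs, and the NDUFA7 window held the YY1 motif only. The window of NDUFB11, which rose, held none of the motifs.

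RefSeq windows were matched for 68 of the 87 members and for 27305 genes in all. The 8-base ETS motif CCGGAAGT, which contains the ETS core, was found in 16.2% of members and in 4.95% of all genes (6.97% of protein-coding genes). The ETS core alone was found in 29.4% of members, 12.2% of all genes and 16.5% of protein-coding genes. The YY1 motif was found in 17.6% of members, 3.52% of all genes and 4.66% of protein-coding genes, and the NRF1 core in 20.6%, 3.68% and 4.89%. The full 10-base NRF1 palindrome, which holds the NRF1 core on both strands, was found in 5.88% of members, 1.52% of all genes and 1.99% of protein-coding genes. Split by the RNA result, the 8-base ETS motif was in 4 of 19 members that rose (COX5B, COX8A, UQCR11 and ATP5A1), 1 of 12 that fell (NDUFA13) and 6 of 34 that did not pass. The ETS core was in 5 of 19 that rose, 2 of 12 that fell and 13 of 34 that did not pass, the largest share of the 3. The YY1 motif was in 1 of 19 that rose, 3 of 12 that fell and 8 of 34 that did not pass, and the NRF1 core in 3, 3 and 8 of the same groups. These shares are descriptions of letters in a window. No test was made of them, and they say nothing of which factor was bound. NDUFB5, NDUFB9, NDUFC2, NDUFS5, SDHC, CYC1, UQCRB, UQCRHL, COX4I2, COX6C, COX7A1, ATP5B, ATP5D, ATP5G3, ATP5J2, ATP5J2-PTCD1, ATP5L2 and ATP5S were among those with no entry.

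Complex I takes electrons from NADH. Of its 36 genes 14 rose, 6 fell and 16 did not pass, and their median log2 fold change was -0.004. The counts by complex and by family below stand against 23.8% higher and 23.3% lower among all genes tested. Its 7 nuclear core subunits, which hold the flavin, the iron-sulfur clusters and the ubiquinone site, gave 3 higher and 0 lower calls, and its 29 accessory subunits 11 higher and 6 lower. NDUFS7 stood at 606, 878 and 1179 in the siNC libraries and 2490.4, 2553 and 2084 in the siELF5 libraries. All 3 siELF5 libraries were above all 3 siNC libraries, at 268% of the siNC mean (log2 fold change 1.47, SE 0.17, adjusted p = 2.14e-05). The siNC libraries themselves spread 1.95-fold. With a GC content of 66.5%, its log2 fold change after the GC correction was 0.92. NDUFS8, another core subunit that carries iron-sulfur clusters, read 3375, 3966 and 4636 in the siNC libraries and 6027, 6115 and 5729.6 in the siELF5 libraries. The groups did not overlap (log2 fold change 0.59, SE 0.084, adjusted p = 9.71e-05), and the corrected value was 0.27 at a GC content of 63.3%. With the GC score as a covariate the NDUFS8 value was -0.049, below 0 and not past the threshold.

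NDUFV1, which binds NADH and the flavin, read 8456, 9209 and 9361 in the siNC libraries and 9786, 9761 and 9813 in the siELF5 libraries, a rise to 109% of siNC (log2 fold change 0.12, SE 0.039, adjusted p = 0.0233). The call for NDUFV1 was lost after the GC correction (0.036, adjusted p = 0.31), and also without siNC replicate 1, siELF5 replicate 1 or siELF5 replicate 2 (adjusted p = 0.091, 0.064 and 0.056). The value for NDUFV1 was -0.082 in the fit on the GC score. NDUFV2, its iron-sulfur partner, read 8083, 7766 and 7633 in the siNC libraries and 7638, 7719 and 7101 in the siELF5 libraries and did not pass (log2 fold change -0.065, SE 0.040, adjusted p = 0.208). NDUFS1, a subunit with several iron-sulfur clusters, read 14039, 13866 and 13577 in the siNC libraries and 13803, 13794 and 13820.4 in the siELF5 libraries, and the groups overlapped (log2 fold change -0.0021, SE 0.029). NDUFS3, another core subunit, read 7260.4, 7144 and 7315 in the siNC libraries and 7230.4, 7177 and 6766 in the siELF5 libraries (log2 fold change -0.037, SE 0.036). The larger changes in the core were thus those of NDUFS7 and NDUFS8.

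Among accessory subunits, the 11 NDUFB genes of the proton-pumping membrane arm gave 6 higher calls and 1 lower, against 23.8% and 23.3% of all genes. NDUFB7 read 960.2, 1399 and 1725 in the siNC libraries and 2154, 2300.1 and 2367 in the siELF5 libraries, at 167% of siNC (log2 fold change 0.78, SE 0.15, adjusted p = 0.000902). Groups did not overlap, but the siNC libraries spread from 960.2 to 1725, and the corrected value was 0.35 at a GC content of 65%. With the GC score as a covariate the NDUFB7 value turned to -0.38 and did not pass (adjusted p = 0.121). NDUFB11 read 6972, 7318 and 7498 in the siNC libraries and 9913, 9591 and 9017 in the siELF5 libraries (log2 fold change 0.39, SE 0.042, adjusted p = 1.04e-05), and NDUFB10 read 5648, 5450.5 and 5494 in the siNC libraries and 7589, 7018 and 6477 in the siELF5 libraries (log2 fold change 0.34, SE 0.050, adjusted p = 0.000122). Both had tight siNC values and a GC content near 60% (60% and 59.7%), with corrected values of 0.28 and 0.24. The call for NDUFB10 was lost after a joint correction on GC content and length (0.11, adjusted p = 0.0877). NDUFB3, NDUFB6 and NDUFB1 rose by less, with log2 fold changes of 0.17, 0.15 and 0.12. The call for NDUFB6 was lost after the correction on length (adjusted p = 0.0527). The call for NDUFB1 was lost without siNC replicate 2, siNC replicate 3 or siELF5 replicate 1 (adjusted p = 0.072, 0.094 and 0.115). NDUFB4 went the other way, from 12319.9, 12018 and 11643 in siNC to 10187, 10551 and 9349 in siELF5 (log2 fold change -0.26, SE 0.043, adjusted p = 0.00034). It has 12 pseudogenes in RefSeq, so reads shared with near-identical copies make its value uncertain. NDUFB2, NDUFB5, NDUFB8 and NDUFB9 did not pass, at -0.0050, -0.045, -0.11 and 0.024.

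Both NDUFC genes, small membrane-arm subunits, rose. NDUFC1 read 3162, 3267 and 3539 in the siNC libraries and 4985, 4886 and 4087 in the siELF5 libraries, at 140.0% of siNC (log2 fold change 0.48, SE 0.069, adjusted p = 9.79e-05). Its GC content is 47.2%, and its corrected value was 0.52. NDUFC2 read 1483, 1483 and 1403 in the siNC libraries and 1674, 1766 and 1549 in the siELF5 libraries (log2 fold change 0.19, SE 0.060, adjusted p = 0.0198). Its call was lost without siNC replicate 3, siELF5 replicate 1 or siELF5 replicate 2 (adjusted p = 0.060, 0.064 and 0.096). NDUFS6, a zinc-binding subunit of the NADH-oxidising arm, read 3658, 4038 and 4115 in the siNC libraries and 5589, 5796 and 4535 in the siELF5 libraries (log2 fold change 0.42, SE 0.077, adjusted p = 0.000634), with siELF5 replicate 3 nearest to siNC. NDUFS4, a subunit of the same arm in which mutations cause Leigh syndrome, read 5042, 4895 and 4940.0 in the siNC libraries and 4581, 4558 and 4511 in the siELF5 libraries, a fall without overlap (log2 fold change -0.12, SE 0.036, adjusted p = 0.0118). NDUFS5 and NDUFV3 did not pass, at -0.069 and -0.029.

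Of the 13 NDUFA symbols, NDUFA4 included, 5 fell and 2 rose. NDUFA7 of the NADH-oxidising arm read 1298, 1356 and 1327 in the siNC libraries and 1108, 1138 and 1019.8 in the siELF5 libraries, at 82% of siNC (log2 fold change -0.29, SE 0.061, adjusted p = 0.00195). NDUFA8, a subunit on the intermembrane face, read 5799, 5959.6 and 5909 in the siNC libraries and 5115, 5052 and 4951 in the siELF5 libraries (log2 fold change -0.22, SE 0.035, adjusted p = 0.000195). Its replicates were within a few percent of each other and the groups were well apart. NDUFA13, also known as GRIM-19, read 6257, 6489 and 6081 in the siNC libraries and 5409, 5362 and 5658 in the siELF5 libraries (log2 fold change -0.20, SE 0.039, adjusted p = 0.00113), and at a GC content of 61.6% its corrected value was -0.39. NDUFA3 read 1675, 1751 and 1695 in the siNC libraries and 1616, 1401 and 1460.4 in the siELF5 libraries (log2 fold change -0.20, SE 0.060, adjusted p = 0.0175). The call was lost without siNC replicate 2 or siELF5 replicate 2 (adjusted p = 0.076 and 0.082). NDUFA2 and NDUFA11 rose. NDUFA2 read 4918, 5023 and 5382 in the siNC libraries and 6036, 6262 and 5591 in the siELF5 libraries (log2 fold change 0.22, SE 0.048, adjusted p = 0.00221). NDUFA11 read 2207, 2587 and 2764 in the siNC libraries and 2969.5, 2939 and 3052 in the siELF5 libraries (log2 fold change 0.25, SE 0.068, adjusted p = 0.00878), and its corrected value of 0.031 did not pass (adjusted p = 0.586, GC content 62%). With the GC score as a covariate the NDUFA11 value was -0.19. NDUFA1, NDUFA5, NDUFA6, NDUFA9, NDUFA10 and NDUFA12 did not pass, with log2 fold changes from -0.02 to 0.06.

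**Figure D2:**
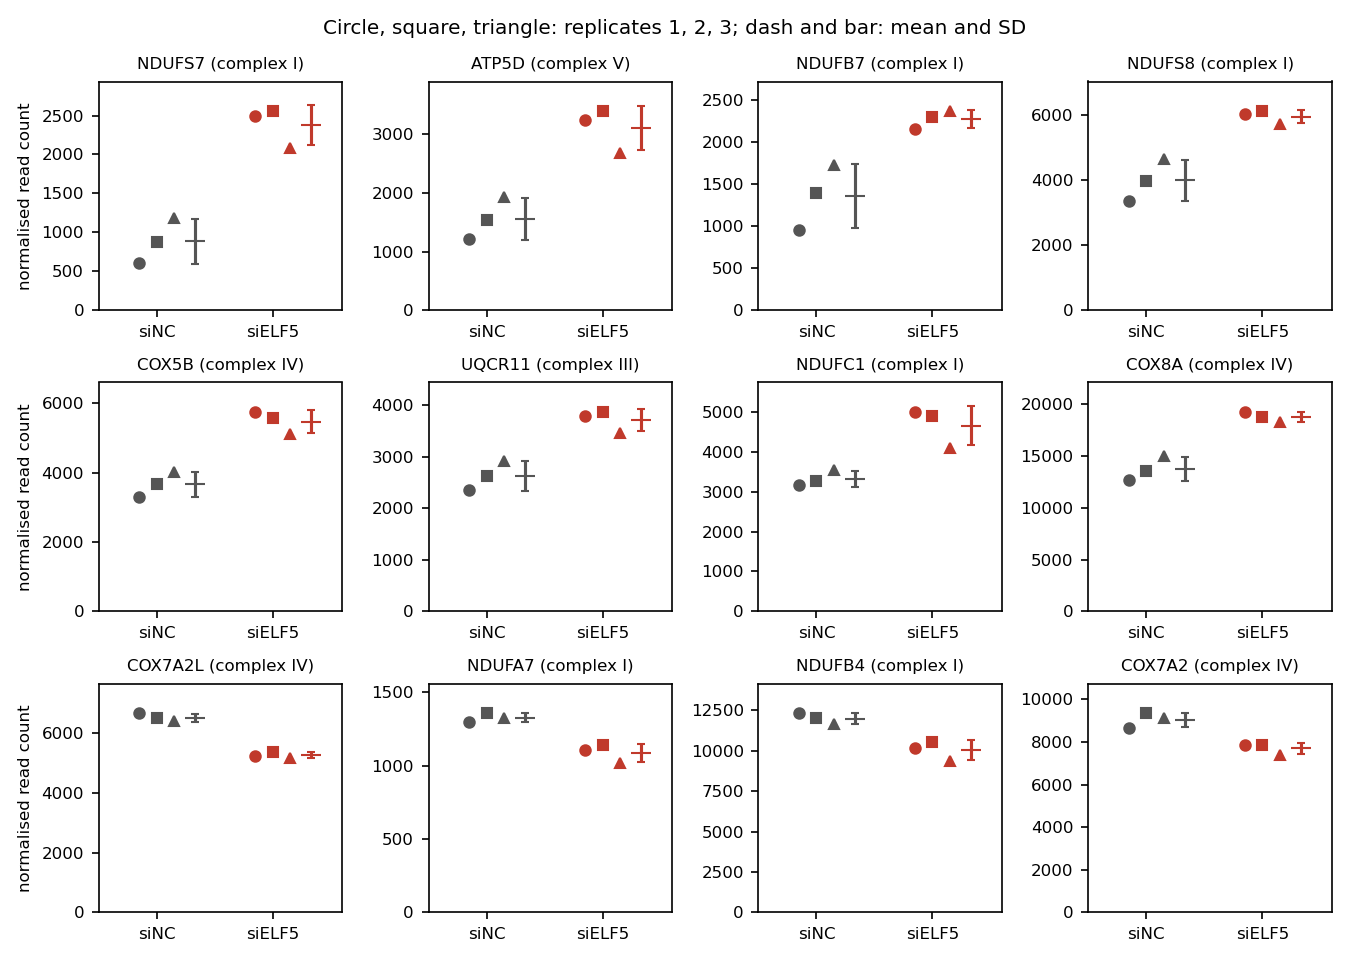
Normalised read count (y axis, from 0) of 12 genes in each of the 6 libraries, with siNC in grey and siELF5 in red, the 3 replicates as circle, square and triangle, and mean and SD beside them. In NDUFS7, ATP5D, NDUFB7 and NDUFS8 the siNC libraries spread widely (NDUFS7 606, 878 and 1179), while the 4 genes of the bottom row, which fell, show close siNC values.

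Complex II oxidises succinate and belongs to both the citric acid cycle and the respiratory chain. Of its 4 genes, 1 rose. SDHA, the flavoprotein that binds succinate, read 17783, 17844 and 18138 in the siNC libraries and 20089, 19905 and 20032 in the siELF5 libraries, at 112% of siNC with a gap between the groups far wider than the spread within them (log2 fold change 0.16, SE 0.028, adjusted p = 0.000457). A pseudogene of SDHA is listed in the same table, so its reads may be split. SDHB, the iron-sulfur subunit, read 6031, 5833 and 6006 in the siNC libraries and 6449.8, 6304 and 5906 in the siELF5 libraries and did not pass (log2 fold change 0.062, SE 0.040, adjusted p = 0.23). Of the membrane anchors, SDHC read 23329, 23993 and 23261 in the siNC libraries and 23618, 22611 and 22722 in the siELF5 libraries (log2 fold change -0.034, SE 0.030, adjusted p = 0.383) and SDHD read 13757, 12933 and 12736 in the siNC libraries and 14125, 13777 and 13427 in the siELF5 libraries (log2 fold change 0.068, SE 0.036, adjusted p = 0.141). Both overlapped between groups.

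Complex III carries electrons from ubiquinol to cytochrome c. Of its 10 genes, 1 rose, 1 fell and 8 did not pass. UQCR11, a small accessory subunit, read 2350.4, 2618 and 2916 in the siNC libraries and 3798, 3862 and 3466 in the siELF5 libraries, at 141% of siNC (log2 fold change 0.50, SE 0.069, adjusted p = 7.83e-05). Its GC content is 53.7% and its corrected value was 0.53. CYC1, the haem-bearing cytochrome c1, read 10231, 10551 and 10629.9 in the siNC libraries and 9878, 9489 and 9996 in the siELF5 libraries (log2 fold change -0.10, SE 0.034, adjusted p = 0.0303). The CYC1 groups did not overlap, and the corrected value was -0.31 at a GC content of 61.8%. The call was lost without siNC replicate 2, siNC replicate 3, siELF5 replicate 1 or siELF5 replicate 2 (adjusted p from 0.060 to 0.123). UQCRFS1, the Rieske iron-sulfur protein, read 8331, 7873 and 7842 in the siNC libraries and 8851, 8557 and 7791 in the siELF5 libraries and overlapped (log2 fold change 0.066, SE 0.047, adjusted p = 0.269). UQCRH, the hinge protein, lay just outside the threshold at 0.085 (adjusted p = 0.0511), and its retrocopy UQCRHL, which may share reads with it, at 0.18 (adjusted p = 0.0592). The core proteins UQCRC1 and UQCRC2 were at 0.074 and -0.019, and UQCRB, UQCRQ and UQCR10 at -0.0056, -0.081 and -0.041.

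Complex IV, cytochrome c oxidase, has a catalytic centre encoded by mitochondrial DNA and a coat of nuclear subunits. Of its 13 tested genes 3 rose, 4 fell and 6 did not pass. COX5B, a zinc-binding subunit, read 3284, 3683 and 4020.0 in the siNC libraries and 5737, 5565 and 5105 in the siELF5 libraries, at 149% of siNC (log2 fold change 0.58, SE 0.066, adjusted p = 1.51e-05). Its GC content is 52%, and after the GC correction its value was 0.61. COX5B has 8 pseudogenes in RefSeq. COX8A, a small membrane subunit, read 12711, 13564 and 15013 in the siNC libraries and 19227, 18775 and 18256 in the siELF5 libraries, at 136% of siNC (log2 fold change 0.45, SE 0.050, adjusted p = 1.26e-05), and its corrected value was 0.39. In both genes all siELF5 libraries lay above all siNC libraries by more than the spread in either group. COX5A, another subunit of the nuclear coat, read 6559, 6601 and 6381 in the siNC libraries and 7672, 7555 and 6482 in the siELF5 libraries. The COX5A groups overlapped because siELF5 replicate 3 lay among the siNC values, and its call (log2 fold change 0.15, SE 0.055, adjusted p = 0.0414) was lost without siNC replicate 2 or 3 or siELF5 replicate 1 or 2 (adjusted p from 0.082 to 0.186).

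COX7A2L had the largest fall of the 80 genes. It read 6649.8, 6487 and 6389 in the siNC libraries and 5228, 5358 and 5154 in the siELF5 libraries, at 80.6% of siNC (log2 fold change -0.31, SE 0.036, adjusted p = 1.63e-05), with every siELF5 library well below siNC. COX7A2, the related subunit of complex IV itself, read 8677, 9347 and 9115 in the siNC libraries and 7851, 7850.2 and 7413 in the siELF5 libraries (log2 fold change -0.23, SE 0.039, adjusted p = 0.000337). COX6C read 16588, 15803 and 16236 in the siNC libraries and 14856, 14866 and 14286 in the siELF5 libraries (log2 fold change -0.14, SE 0.032, adjusted p = 0.00253), a smaller fall without overlap in a gene with 18 RefSeq pseudogenes. NDUFA4 read 22628, 22850.5 and 22669 in the siNC libraries and 21304, 20832 and 20381 in the siELF5 libraries (log2 fold change -0.12, SE 0.029, adjusted p = 0.0033). COX4I1, the form of subunit 4 made in most tissues, read 24284, 23796 and 23006 in the siNC libraries and 23080.4, 22622 and 22087 in the siELF5 libraries and did not pass (log2 fold change -0.068, SE 0.031, adjusted p = 0.0913). COX6A1, COX6B1, COX7B and COX7C did not pass either, at 0.067, -0.0094, -0.024 and -0.072.

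Several complex IV subunits come in a form made in most tissues and a form made mainly in muscle, lung or testis. Of the second forms, COX7B2 alone reached the mean of 10 needed for the test. COX6A2 and COX8C were at 0 in all 6 libraries. COX4I2 had a value in 1 library only (0.98 in siELF5 replicate 2). COX7A1 read 6.90, 3.69 and 4.05 in the siNC libraries and 3.62, 9.81 and 8.22 in the siELF5 libraries, and COX6B2 read 4.60, 5.53 and 8.10 in the siNC libraries and 14.5, 1.96 and 6.16 in the siELF5 libraries, both under that mean. COX7B2 read 117, 94.1 and 100.2 in the siNC libraries and 110.5, 121 and 116 in the siELF5 libraries and did not pass (log2 fold change 0.16, SE 0.16, adjusted p = 0.445). No fold is given for the untested forms.

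Complex V has a soluble catalytic head, F1, and a membrane part, Fo, joined by stalks. Of its 17 tested genes 4 rose, 3 fell and 10 did not pass. In F1, 3 of 5 subunits rose and 0 fell. ATP5D, the delta subunit of the central stalk, read 1214, 1533 and 1925 in the siNC libraries and 3238, 3387 and 2675 in the siELF5 libraries, at 199% of siNC (log2 fold change 1.01, SE 0.13, adjusted p = 4.56e-05). Groups did not overlap, the siNC libraries spread 1.59-fold, and at a GC content of 69.6% the corrected value was 0.23. The catalytic beta subunit ATP5B read 98589, 99774 and 99622 in the siNC libraries and 107816, 107811 and 105421 in the siELF5 libraries (log2 fold change 0.11, SE 0.026, adjusted p = 0.00413), a small rise with close replicates, whose call was lost after the correction on length (0.053, adjusted p = 0.0886). Its partner ATP5A1, the alpha subunit, read 44617, 44057 and 43525 in the siNC libraries and 47783, 45877 and 45937 in the siELF5 libraries (log2 fold change 0.078, SE 0.028, adjusted p = 0.0366). That call was lost without siNC replicate 2, siNC replicate 3 or siELF5 replicate 1 (adjusted p = 0.118, 0.119 and 0.148). ATP5C1, the gamma subunit that turns inside the head, read 26214, 25234 and 24951 in the siNC libraries and 25199.6, 24745 and 23930.2 in the siELF5 libraries and did not pass (log2 fold change -0.048, SE 0.032, adjusted p = 0.231). ATP5E, the epsilon subunit, did not pass either, at 0.11.

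In Fo and the stalks, 1 of 10 subunit genes rose and 2 fell. The 3 ATP5G genes encode the same c subunit of the rotor ring with different import sequences; 1 rose, 1 fell and 1 did not pass. ATP5G3 read 12492, 12328 and 12221 in the siNC libraries and 14064, 13548 and 12995 in the siELF5 libraries, a rise (log2 fold change 0.13, SE 0.034, adjusted p = 0.00695) whose call was lost in a fit with no intensity trend (adjusted p = 0.0513). ATP5G1 read 8589.7, 9292 and 8864 in the siNC libraries and 8401, 7701 and 8197 in the siELF5 libraries, a fall (log2 fold change -0.14, SE 0.042, adjusted p = 0.0151) whose call was lost without siNC replicate 2 or siELF5 replicate 2 (adjusted p = 0.094 and 0.076). ATP5G2 read 23826, 22939.9 and 22595 in the siNC libraries and 22466, 20422 and 21987 in the siELF5 libraries and lay just outside the threshold (log2 fold change -0.10, SE 0.038, adjusted p = 0.0504). ATP5I, the e subunit, read 5877, 6315 and 6368 in the siNC libraries and 5609, 5258 and 5453 in the siELF5 libraries (log2 fold change -0.19, SE 0.042, adjusted p = 0.00287). The peripheral stalk genes ATP5F1, ATP5H, ATP5J and ATP5O were at 0.031, 0.073, 0.045 and 0.029, and the membrane subunits ATP5L and ATP5J2 at -0.057 and -0.087; none of these passed. ATP5SL, now called DMAC2 and an assembly factor for complex I, fell slightly (log2 fold change -0.14, SE 0.048, adjusted p = 0.0294), a call lost without siNC replicate 3 or any 1 siELF5 library (adjusted p from 0.059 to 0.127). ATP5S did not pass (log2 fold change 0.0024, SE 0.062). ATP5L2 was too low to test, at 0, 1.84 and 2.02 in the siNC libraries and 5.43, 5.89 and 8.22 in the siELF5 libraries, and ATP5J2-PTCD1 was at 0 throughout.

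Summed over all 87 members, the normalised read count was 858451, 860041 and 857471 in siNC and 898353, 883955 and 857816 in siELF5. The siELF5 mean was 102.5% of siNC, and siELF5 replicate 3 fell within the siNC range. The sums stood at 103.3% of siNC in complex I, 104.0% in complex II, 101.1% in complex III, 100.1% in complex IV and 103.2% in complex V, while the sum over all tested genes was 97.8%. In complexes I, III and IV the lowest siELF5 library lay within or below the siNC values. In complexes II and V every siELF5 library was above every siNC library. A sum is weighted to abundant genes, so it hardly registers NDUFS7 or NDUFB7.

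**Figure D3:**
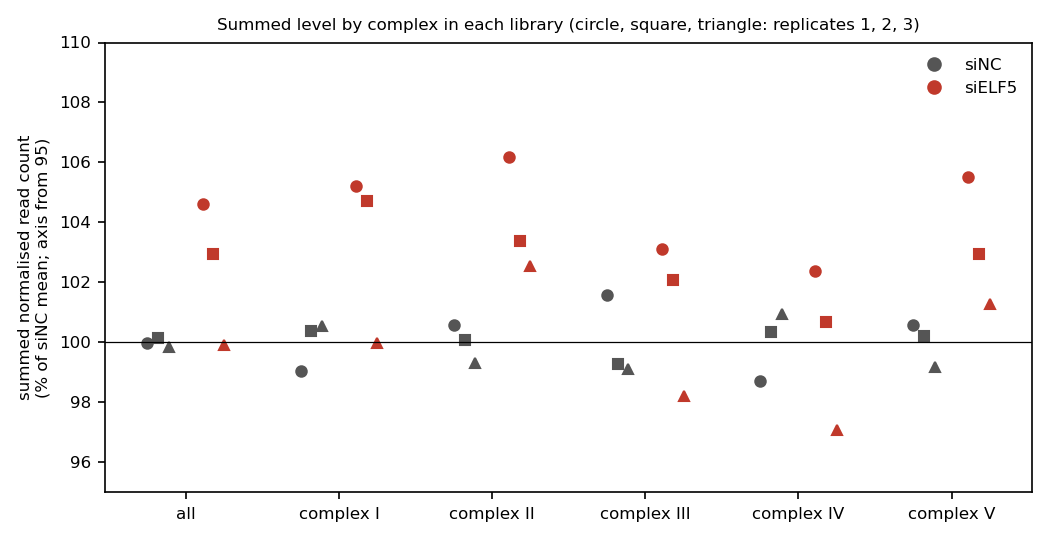
Summed normalised read count per library as a percentage of the siNC mean (y axis, from 95), for all members and for each complex, with siNC in grey, siELF5 in red, and replicates 1, 2 and 3 as circle, square and triangle. The siELF5 libraries spread by several percent, replicate 3 is the lowest in each column, and the siELF5 means run from 100.1% (complex IV) to 104.0% (complex II).

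Higher and lower calls were spread unevenly over transcript GC content. The members with a GC content of 60% or more gave 6 higher and 2 lower calls among 8 (median log2 fold change 0.49), and all tested genes of that class a median of 0.31 with 1346 higher and 151 lower of 2529. Members under 45% gave 3 higher and 6 lower of 25, against 831 and 1522 of 5357 for all genes. From 45 to 55% the members gave 10 higher and 2 lower of 35, against 927 and 1454 of 5084, and from 55 to 60% 4 higher and 4 lower of 12, against 639 and 556 of 2471. The class limits were chosen after the values were seen. Across the 80 members the Spearman correlation of GC content with log2 fold change was 0.19, and across all genes 0.28; genes of the same libraries are not independent, and these are descriptions.

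After the GC correction 28 members were higher and 15 lower, 35 of the 37 calls kept their direction and their place past the threshold, and 49.4% of all genes passed, 23.5% higher and 25.9% lower. The corrected values of NDUFS7 (0.92), COX5B (0.61), UQCR11 (0.53), NDUFC1 (0.52), NDUFS6 (0.45) and COX8A (0.39) stayed well above 0, while ATP5D went from 1.01 to 0.23. Correction on transcript length instead gave 18 higher and 26 lower members, while 48.8% of all genes passed, 23.6% higher and 25.1% lower. With the GC score, in which the groups do not overlap, as a covariate in the model, only NDUFB10 was higher and NDUFB8, COX7A2 and ATP5I were lower, and 7.81% of all genes passed, 3.5% higher and 4.31% lower. The median SE of the members was then 0.093, against 0.040 without it. Under that covariate NDUFS7 was at 0.11 (adjusted p = 0.761), COX5B at 0.17 (adjusted p = 0.403) and COX7A2L at -0.25 (adjusted p = 0.108). UQCR11 was then at 0.052, NDUFC1 at 0.23, NDUFS6 at 0.12, COX8A at 0.13 and ATP5D at 0.049, none past the threshold.

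**Figure D4:**
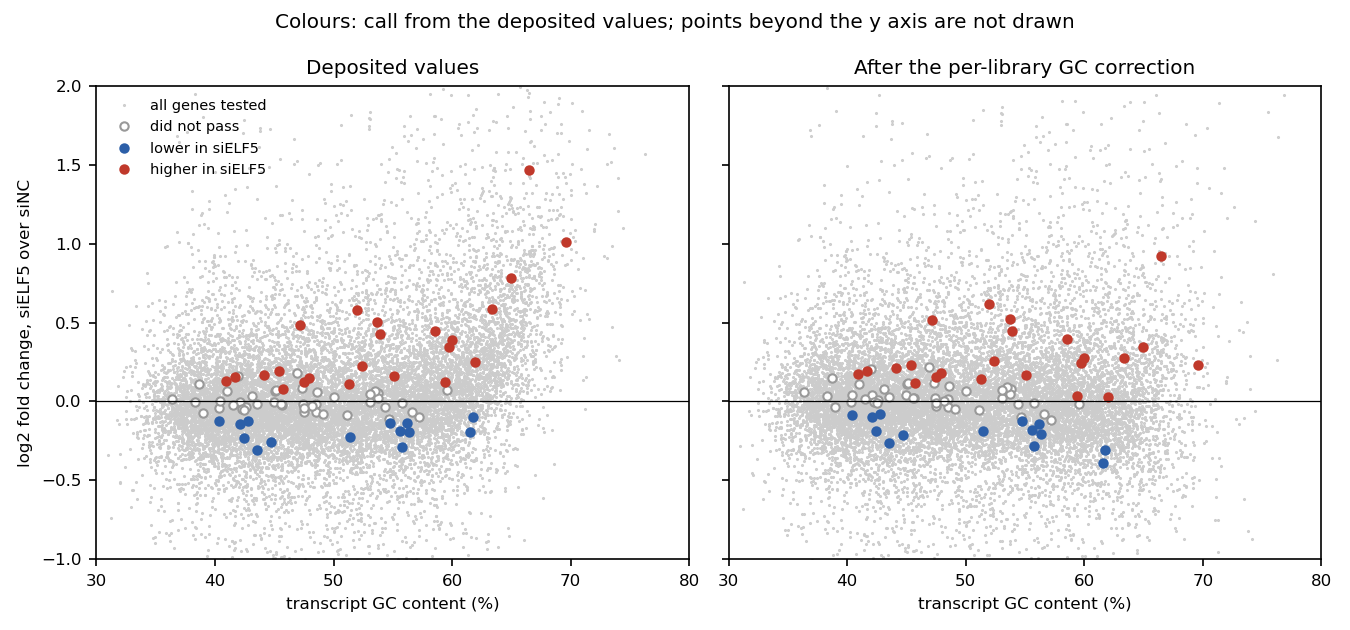
Log2 fold change (y axis, siELF5 over siNC) against transcript GC content in percent (x axis) for all tested genes with a GC value (grey dots) and for the 80 members (coloured by their call on the deposited values), before (left) and after (right) the per-library GC correction. On the left the genes over 60% GC rise above 0, with NDUFS7, ATP5D, NDUFB7 and NDUFS8 among them, and on the right that rise of the grey dots is gone and NDUFS7 remains at 0.92.

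Genes that build or surround the complexes were counted in the same fit, in which 23.8% of all genes were higher and 23.3% lower. Of 15 tested assembly factors of complex I, 3 rose and 4 fell. NUBPL, which delivers iron-sulfur clusters to complex I, went from 3477, 3355 and 3459 to 3000.3, 2967 and 2724 (log2 fold change -0.24, SE 0.047, adjusted p = 0.000913), and COA1 from 6999, 6925 and 6637 to 6028, 5839.5 and 6219.5 (log2 fold change -0.19, SE 0.038, adjusted p = 0.00146). NDUFAF3 rose (log2 fold change 0.31, SE 0.065, adjusted p = 0.00194), but at a GC content of 64% its corrected value was -0.053. Of 33 tested assembly factors of complexes II to V, 10 rose and 7 fell. TTC19, a factor of complex III, went from 2976, 2996 and 2865 to 4179, 4312 and 4108 (log2 fold change 0.51, SE 0.041, adjusted p = 7.51e-07), with no overlap. UQCC3, another factor of complex III, rose (log2 fold change 0.59, SE 0.082, adjusted p = 8.4e-05), and COA4, a factor of complex IV, fell from 6965, 7056 and 6879 to 5568, 5485 and 5424 (log2 fold change -0.34, SE 0.034, adjusted p = 4.54e-06). Medians were 0.004 and 0.025 for these lists.

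Among 22 known regulators of mitochondrial genes, 4 rose and 7 fell. POLRMT, the mitochondrial RNA polymerase, rose from 1302, 1395 and 1546 to 2125, 2166 and 2046 (log2 fold change 0.58, SE 0.064, adjusted p = 1.18e-05), and its corrected value was 0.056 at a GC content of 66.3%. YY1 rose from 9828, 9663 and 9994 to 12527, 12755 and 11399.7 (log2 fold change 0.31, SE 0.041, adjusted p = 5.48e-05), and MYC fell from 3482, 3656 and 3752 to 3001, 2926 and 2882 (log2 fold change -0.31, SE 0.043, adjusted p = 9.49e-05). The next factors were named after their values were seen, because their motifs or functions are described above. GABPA fell from 5593, 5449 and 5353 to 4364, 4755 and 4544 (log2 fold change -0.26, SE 0.041, adjusted p = 0.000197). NRF1 overlapped between groups, at 1462, 1447 and 1498 in the siNC libraries and 1454, 1446 and 1490.2 in the siELF5 libraries (log2 fold change -0.0050, SE 0.051, adjusted p = 0.948). The coactivator PPARGC1A and the mitochondrial DNA packaging factor TFAM did not pass either, at -0.036 and 0.010.

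Of 19 genes of the citric acid cycle and pyruvate dehydrogenase, 4 rose and 6 fell. FH, fumarase, rose from 9429, 9426 and 9569 to 11422, 11245 and 10625 (log2 fold change 0.23, SE 0.035, adjusted p = 0.000172). CS, citrate synthase, fell from 38343, 39076 and 38507 to 34761, 33443 and 34202 (log2 fold change -0.18, SE 0.028, adjusted p = 0.000185), and PDHX, a pyruvate dehydrogenase component, from 8812, 8796 and 8399 to 7575, 7544 and 7385 (log2 fold change -0.21, SE 0.034, adjusted p = 0.000281). A list of 29 genes, mainly of protein import, carriers and porins, also held ATPIF1, the inhibitor of ATP synthase, and CYCS, which encodes cytochrome c. Of these 29 genes 3 rose, ATPIF1 among them, and 13 fell, CYCS among them. Their median was -0.08, against 23.8% higher and 23.3% lower and a median of 0.00155 over all genes. TOMM7, of the outer membrane import pore, fell from 12521, 12337 and 12085 to 9566, 9404 and 9552 (log2 fold change -0.37, SE 0.031, adjusted p = 1.02e-06). VDAC1, the main porin of the outer membrane, fell (log2 fold change -0.32, SE 0.031, adjusted p = 3.59e-06), and so did the import chaperone TIMM10 (log2 fold change -0.40, SE 0.042, adjusted p = 9.07e-06). Of 6 tested genes of the pathway that the symbol rule misses, 2 of them also in the import list, 2 rose and 3 fell. NDUFAB1, the acyl carrier protein of complex I, rose from 7249, 7098 and 7794 to 9892, 9666 and 8515 (log2 fold change 0.34, SE 0.054, adjusted p = 0.000226), and C14orf2 and USMG5, small subunits of complex V, fell (-0.23 and -0.22).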

How the data were processed

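RNA-seq of 6 T47D libraries (3 siNC, 3 siELF5, 48 h) was analysed from 1 deposited table of the whole series; groups and replicate numbers came from sample titles. The build hg19 and the tools STAR 2.6, Subread, featureCounts 1.6.3 and DESeq2 1.22.1 are named, without settings, per the submitters' processing notes. The deposited per-library signal values are gene counts divided by a size factor, since 100% of non-zero values were whole multiples of 1 read (tolerance 1e-06). The deposited log2 fold change, test score and p-values (raw and adjusted) were made by the authors and entered no test. The kit does not mark strand, so reads of overlapping genes on opposite strands cannot be told apart, and how shared reads were counted is not stated. No value column was left unmapped.

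The test was limma 3.58.1 (R 4.3.3) with an intensity trend on log2(value + 1), two-sided, for genes with a mean of at least 10, adjusted by the Benjamini-Hochberg method over all 16032 genes, threshold 0.05. The pseudocount understates the change of low genes. The quasi-likelihood test of edgeR 4.0.16 on the recovered reads called 7578 genes, and DESeq2 1.42.0 on the same reads 7292. On simulated data at these depths limma recovered 40% of changes of 0.25 (log2), 80% of 0.5 and of 1, and 100% of 2, and called 0.0821% of unchanged genes. The simulation changed only 50 genes at each size among 16032 and held no GC difference between libraries. In the real data 47.1% of genes passed, so the simulated rates do not carry over to them. Within each group, replicates differed beyond counting noise (chi-square per degree of freedom 4.26 to 11.4).

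GC content and length came from GENCODE 29 transcripts (the principal one, or else the longest), found for 96.3% of tested genes. The GC correction subtracted a loess curve (span 0.3) per library. Motifs were searched in RefSeq promoter windows; the NRF1 core was added after the values were seen. The members, gene lists and alternatives were chosen with earlier results of these data known. The naming rule gave values in full for ELF5, for up to 4 members per complex and direction with the largest change, for catalytic or cofactor-bearing subunits and isoform sets, and for up to 3 members per list with the smallest adjusted p; lists without a measured gene are not reported, and 1 further gene was left out of the text.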

Additional observations from a re-analysis of the deposited data

How the results depend on the processing

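The counts of members past the threshold (37, with 23 higher and 14 lower) came within 1.5 times of these values under edgeR, DESeq2, other scalings, pseudocounts and filters, and no intensity trend. With no intensity trend 28 members passed, 17 higher and 11 lower, against 6355 of 16032 genes in all. That fit lost 10 of the 37 calls, ATP5G3 among them. Leaving out 1 library at a time gave 30 to 41 members, 18 to 27 higher and 10 to 15 lower, and 6164 to 7312 of all genes. In all 6 of these fits 28 of the 37 calls were kept. Of those, 23 (13 higher, 10 lower) were also kept in 14 other settings, which leave out the GC score covariate. The share of all genes' calls kept in the same fits was not counted, so these counts are no result about the members. The length correction gave 44 members, 26 of them lower, and the GC and length correction 49, 23 of them lower. Of 15441 genes in all, 7530 passed after the length correction and 7859 after the GC and length correction. The library GC score as a covariate left 1252 genes in all and 4 members, 1 higher and 3 lower, in fits with wider standard errors. The members' median was 0.0319 with equal column totals and with quantile scaling, 0.0341 after the GC correction and 0.0243 with the GC score. The median over all genes was 0.0331 with equal column totals, -0.0280 with quantile scaling, -0.0074 after the GC correction and -0.0165 with the GC score. Leaving out libraries gave medians of the members from -0.00297 to 0.0339, the highest without siELF5 replicate 3. The members' median varies between replicates by 0.022 (SD). With the GC score 4 called values turned negative without passing the threshold, NDUFS8 (-0.0488), NDUFA11 (-0.19), NDUFB7 (-0.38) and NDUFV1 (-0.0821). After the GC and length correction the NDUFA11 log2 fold change was -0.0849 and the NDUFV1 log2 fold change -0.00161, neither past the threshold. The cause of these differences was not tested. Same-numbered replicates did not deviate together (r = 0.015, -0.035 and -0.056). With only 3 libraries per group these values cannot settle whether the numbers pair the libraries, and the labels do not say. With a replicate block 38 members (24 higher, 14 lower) and 7174 genes passed. Of the 7 untested members, COX4I2, COX6B2, COX7A1 and ATP5L2 had few reads and the other 3 were at 0; among those tested, COX7B2 had an SE of 0.16 against a median of 0.040.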

Other observations

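Some genes near the pathway were noted after their values were seen. SCO2, a copper chaperone of complex IV assembly, read 0, 2.77 and 2.02 in the siNC libraries and 31.7, 30.4 and 29.8 in the siELF5 libraries. These are low values for a gene with a transcript GC content of 65.1%, and no fold is given. CMC1, another assembly factor of complex IV, read 761, 952.7 and 1013 in siNC and 1481, 1577 and 1151 in siELF5, at a GC content of 34.7% (log2 fold change 0.62, SE 0.12, limma adjusted p = 0.000904). With the GC score as a covariate the CMC1 value was -0.034 and did not pass. ATPIF1, the inhibitor of ATP synthase, rose (log2 fold change 0.26, adjusted p = 0.000937), and CYCS, which encodes cytochrome c, fell (-0.17, adjusted p = 0.00148).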
